A study of Homo sapiens with 3 samples.

Results

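Genes of cholesterol and fatty acid synthesis were described in NCI-H226 cells, a human mesothelioma cell line without NF2, and in a clone of that line grown out under a TEAD inhibitor. The 31 genes were taken by name from the 36601 genes of the expression matrix, and all 31 were found. They were 18 enzymes of isoprenoid and sterol synthesis, called sterol enzymes below, and 4 control genes, SREBF1, SREBF2, SCAP and INSIG1. The rest were 2 genes of sterol transport and acetyl-CoA condensation, and 7 genes of fatty acid synthesis and desaturation. A further 67 peaks of open chromatin lay within 2 kb of the intervals that the feature table gives for these genes, of 215590 peaks in all.

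The study had 4 conditions: parental NCI-H226 cells and the resistant clone CL3, each given the inhibitor GNE7883 or its solvent DMSO. CL3 is a single clone. It was selected in a TEAD inhibitor that began at 0.25 µM and was increased by 0.1 to 0.5 µM at a time until it reached 3 µM. The cells of each condition were marked with a hashtag antibody, pooled, and run together in an assay that reads RNA and open chromatin from the same droplet. The hashtag counts were not used here and no barcode was assigned to a condition, so all cells formed 1 pooled sample. No comparison of inhibitor with DMSO, or of clone with parent, was therefore made, and no p-value is given. Intervals cover counting error only.

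Cells make cholesterol from acetyl-CoA in a long chain of reactions. HMGCS1 and the mevalonate kinases lead to isoprenoids, and FDFT1 joins them into squalene. SQLE and then LSS turn squalene into lanosterol, and a further set of enzymes trims lanosterol to cholesterol. The transcription factors SREBP, encoded by SREBF1 and SREBF2, sit in the endoplasmic reticulum bound to SCAP. When membrane sterol is high, INSIG1 holds SCAP there, and when sterol is low the factors travel to the Golgi, are cut, and enter the nucleus to switch on sterol and fatty acid genes. LXR receptors answer the opposite state and raise efflux genes such as ABCA1.

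The starts of 4 of the genes are shown because the results below turn on them or because they hold the sterol element to which SREBP binds. Each stretch ends at the base before the earliest annotated start and is given 5′ to 3′ on the strand of the gene, from RefSeq, build GRCh38.p14. Capitals mark matches to 1 of the letter patterns named in the next paragraph.
SREBF2, chr22:41832959-41833078, plus strand: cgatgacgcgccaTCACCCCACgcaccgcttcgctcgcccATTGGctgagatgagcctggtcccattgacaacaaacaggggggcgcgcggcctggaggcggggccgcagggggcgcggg
MSMO1, chr4:165327419-165327668, plus strand: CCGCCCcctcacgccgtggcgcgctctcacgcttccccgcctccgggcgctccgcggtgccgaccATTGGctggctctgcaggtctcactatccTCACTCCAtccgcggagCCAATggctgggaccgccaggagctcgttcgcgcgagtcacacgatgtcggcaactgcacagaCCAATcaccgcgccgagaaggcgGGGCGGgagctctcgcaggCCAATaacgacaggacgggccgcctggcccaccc
HSD17B7, chr1:162790582-162790701, plus strand: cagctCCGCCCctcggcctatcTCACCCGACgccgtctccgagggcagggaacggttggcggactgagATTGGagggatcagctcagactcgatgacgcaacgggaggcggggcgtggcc
EBP, chrX:48521688-48521807, plus strand: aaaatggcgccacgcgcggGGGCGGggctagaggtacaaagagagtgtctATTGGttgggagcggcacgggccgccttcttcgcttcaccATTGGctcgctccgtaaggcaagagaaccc
Each of these 4 stretches lay under a peak of open chromatin, and that of SREBF2 also overlapped the antisense gene SREBF2-AS1. The first capitals in the SREBF2 stretch are a full match to the sterol element of the longest pattern searched.

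The 250 bases before each annotated start were searched on both strands for 27 of the 31 genes. FDFT1, SQLE, ACAT2 and FASN were not searched. TCACNCCAC, the sterol element, was found at 1 of the 27 genes, SREBF2, and at 1.09% of the 27305 genes searched in all. The shorter pattern TCACNCCA, which lies within it, was found at MVK, MSMO1 and SREBF2, and at 3.92% of all genes. TCACNCNAC, which overlaps both, was found at FDPS, HSD17B7, SREBF2 and FADS2, and at 2.48% of all genes. The palindrome TCACGTGA was found at INSIG1 alone of the 27, and at 1.04% of all genes. The 250 bases can run past an earlier annotated start of the same gene. At INSIG1 the match was not among the 148 bases before its earliest start. CCAAT, the letters of the NF-Y box, was found at 20 of the 27 genes against 37.0% of all genes, and GGGCGG, the letters of the GC box, at 26 of the 27 against 46.2%. The GGGCGG matches of FDPS, SREBF2, STARD4 and FADS2 also lay past an earlier start. The letters and the genes shown were chosen after matches had been seen, so these counts are a description only.

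The 8913 cells kept had a median of 1524 RNA molecules counted by their molecular identifiers (UMIs) and 4034 peak counts each, and held 16588148 UMIs in all. Levels are given as CPM, UMIs scaled to a total of 1000000 UMIs. Mesothelial markers gave 9701 CPM, fibroblast markers 120 CPM, and immune, endothelial, adipocyte and hepatocyte markers 8.80, 19.5, 0.241 and 7.05 CPM. Of these last 4 lists, 3 of 9, 1 of 5, 1 of 4 and 3 of 4 markers were at 0. No doublets were removed.

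The 31 genes gave 75521 UMIs, 0.455% of all. The fatty acid genes gave 38864 of them and the sterol enzymes 29238, with 4244 from the control genes and 3175 from STARD4 and ACAT2. SCD, the desaturase that makes oleate, alone gave 19407 UMIs, a level of 1170 CPM (95% Poisson interval 1154 to 1187). FADS1, a desaturase of polyunsaturated fatty acids, stood at 454 CPM, ACACA, which makes malonyl-CoA, at 321 CPM, and FASN, the fatty acid synthase itself, at 111 CPM. Among the sterol enzymes HMGCS1 stood at 314 CPM, FDPS at 295 CPM, MSMO1 at 175 CPM and CYP51A1 at 155 CPM. The lowest levels were those of PMVK at 9.77 CPM, GGPS1 at 12.4 CPM and NSDHL at 19.8 CPM, and the other 28 genes were at 20 CPM or more. Of the control genes INSIG1 stood at 102 CPM, SREBF2 at 87.2 CPM, SREBF1 at 44.1 CPM and SCAP at 22.9 CPM. These levels carry no correction for gene length and are compared below within a gene only.

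The 31 genes together took a somewhat smaller share of free RNA than of the RNA in cells. In the 412708 barcodes with 1 to 100 UMIs, which held 810758 UMIs, the 31 genes summed to 4006 CPM against 4553 CPM in cells. The sum of the sterol enzymes was 1.05 times that in free RNA (95% interval 0.991 to 1.11), and the sum of the fatty acid genes 1.26 times (1.20 to 1.33). The window first planned, 10 to 100 UMIs, held 1594 barcodes and gave lower free levels. There the 31 genes summed to 3622 CPM, the sterol enzymes to 1598 CPM and the fatty acid genes to 1512 CPM. Higher in cells than in free RNA, with an interval that excluded 1, were HMGCS1, CYP51A1, SREBF2, SCD, ACACA, ELOVL6 and FADS1. The ratio was 1.90 (1.60 to 2.27) for ACACA, 1.53 (1.34 to 1.74) for FADS1 and 1.41 (1.15 to 1.77) for CYP51A1. TM7SF2 and ACAT2 were at 0.687 (0.496 to 0.976) and 0.684 (0.581 to 0.810) of their free level. The share of all genes that differ from free RNA by the same rule was not taken, so the number of these genes is not read as a result. Free RNA gave a background for every gene. The share of cells with a UMI is for this reason not read as the share of cells that express a gene.

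**Figure D1:**
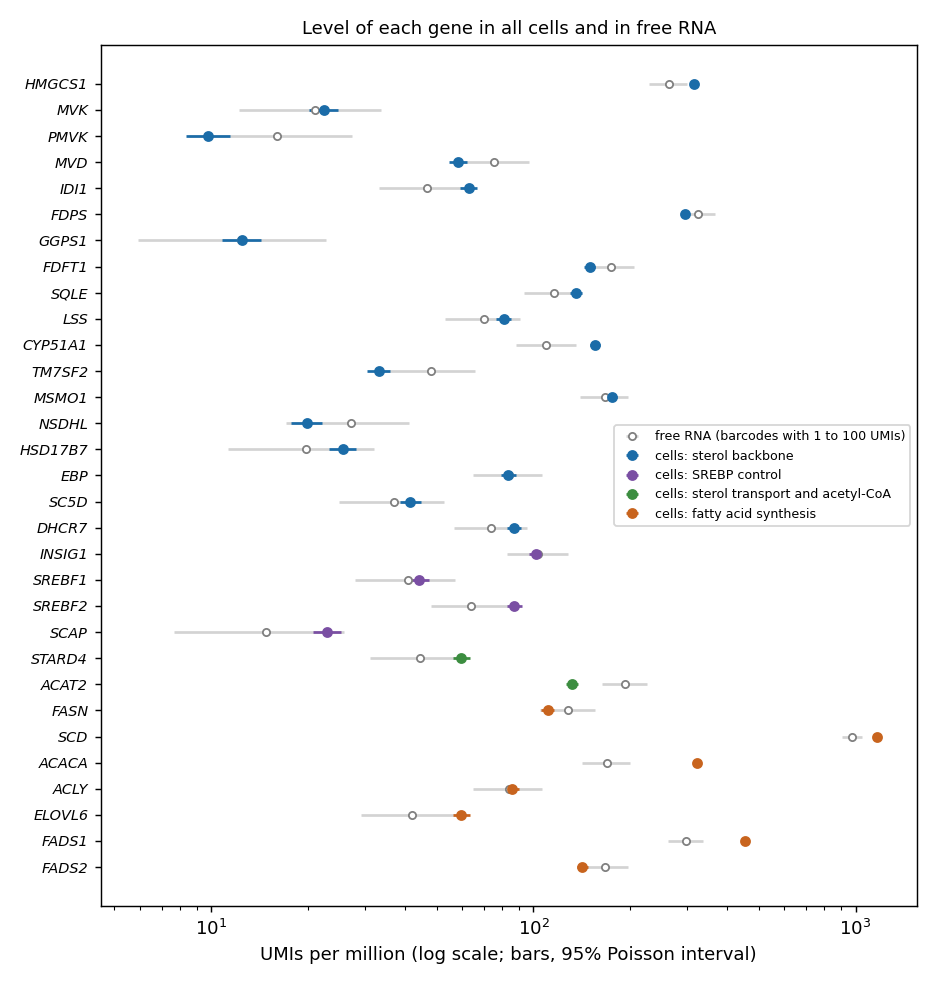
Each row is 1 of the 31 genes; the horizontal axis is CPM on a log scale. Filled points are the 8913 cells, coloured by role, open points the barcodes with 1 to 100 UMIs, and bars 95% Poisson intervals; SCD lies farthest right at 1170 CPM, and for most genes the open point lies within a short distance of the filled one.

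The cells were divided into 7 clusters by their open chromatin, leaving out every peak within 2 kb of the 31 genes, so that neither the RNA nor the peaks of these genes drew the clusters. The clusters held 2411, 1837, 1665, 1545, 681, 653 and 121 cells. Cluster 1 was led by IFI44L, IL1RAPL1 and HMGA2, cluster 2 by CLSTN2, REC114 and CYP24A1, cluster 3 by PPP2R2B and ADGRL3, cluster 4 by CYP17A1 and SFTPD, cluster 5 by ITLN1 and APOA1, and cluster 6 by IGFBP5 and INHBA. None was given a cell type name. The UMIs of a cluster were summed and set against those of all other cells, for genes that had 100 or more UMIs over the pair of sums and reached 20 CPM in either. A gene was called higher or lower at 1.5-fold with a 95% interval that excluded 1. A looser rule called it at a ratio of 5 to 4, with the same demand on the interval. PMVK and GGPS1 were below the floor, which left 29 genes.

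Cluster 2 had more RNA of the pathway than any other cluster. Its sterol enzymes summed to 2197 CPM (2149 to 2245), 1.34 times the level of all other cells (1.31 to 1.38), and the sums of the other clusters ran from 1553 CPM in cluster 1 to 1793 CPM in cluster 7. Its fatty acid genes summed to 2663 CPM, 1.18 times the level of all other cells (1.16 to 1.21), against 2001 to 2551 CPM in the other clusters. Of the 29 genes, 28 had a ratio above 1, and 18 were higher at 5 to 4, where 6.04% of the 6784 genes compared were. At 1.5-fold 2 of the 29 were higher, against 1.84% of all genes, and none was lower at either threshold, against 2.26% and 8.02% of all genes. The median log2 ratio was 0.40 over the 16 sterol enzymes compared, 0.34 over the 7 fatty acid genes, 0.23 over the 4 control genes and -0.02 over all genes. The sum of the mesothelial markers was also highest in cluster 2, at 11894 CPM against 8828 to 10218 CPM in the other clusters, and its part in the result was not tested. Median UMIs per cell were 1648 in cluster 2 and 1427 to 1632 elsewhere.

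**Figure D2:**
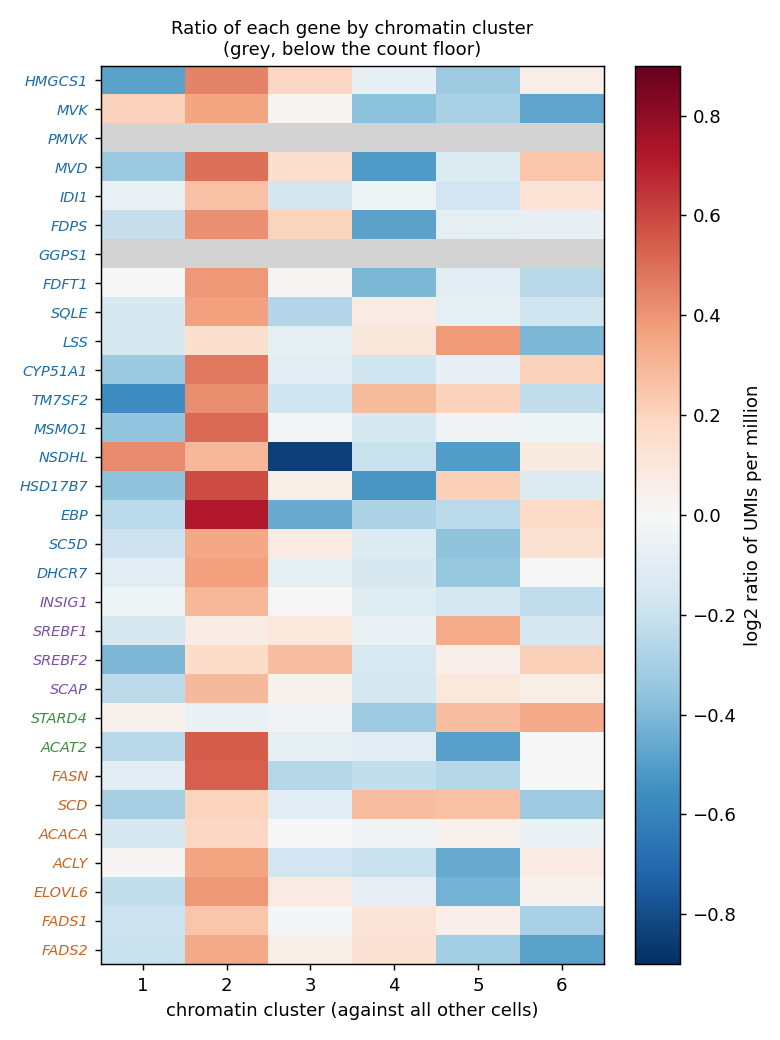
Rows are the 31 genes, coloured by role, and columns chromatin clusters 1 to 6; colour is the log2 ratio of CPM in the cluster to all other cells, and grey marks genes below the floor. The column of cluster 2 is red in 28 of the 29 genes compared, with EBP the deepest, and the column of cluster 1 is mostly blue.

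The 2 genes past 1.5-fold in cluster 2 act on the sterol skeleton late in the chain. EBP, the sterol isomerase, stood at 120 CPM in cluster 2, and at 73.8, 64.1, 70.8, 71.4, 93.2 and 87.0 CPM in clusters 1, 3, 4, 5, 6 and 7. Its interval in cluster 2, 109 to 132 CPM, overlapped those of clusters 6 and 7 only, and the ratio to all other cells was 1.65 (1.47 to 1.85). HSD17B7, a reductase of the sterol ring, stood at 34.6 CPM (28.9 to 41.2) in cluster 2, against 18.7 to 33.8 CPM in the others, with a ratio of 1.5 (1.21 to 1.85). These intervals overlapped more than those of EBP.

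The other sterol enzymes called at 5 to 4 were spread over the whole chain. At its head HMGCS1 stood at 397 CPM in cluster 2 and 291 CPM in other cells, 1.36-fold (1.28 to 1.45). MVD was 1.41-fold higher (1.22 to 1.62) and FDPS 1.33-fold higher, at 365 CPM against 275 CPM. FDFT1 and SQLE, the enzymes on either side of squalene, were 1.31-fold (1.20 to 1.44) and 1.29-fold (1.18 to 1.42) higher. Past lanosterol, CYP51A1 and MSMO1, which remove methyl groups, were 1.39-fold (1.27 to 1.51) and 1.42-fold (1.31 to 1.54) higher. LSS, which closes the rings, had the lowest ratio of the 16 at 1.10, with an interval that began at 0.972.

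Of the 7 fatty acid genes FASN moved most, at 147 CPM in cluster 2 against 101 CPM in other cells, 1.45-fold higher (1.31 to 1.61). Its level in the other clusters ran from 87.0 to 111 CPM, and of their intervals only that of cluster 7, with its 121 cells, overlapped that of cluster 2, 134 to 160 CPM. ACLY, ELOVL6 and FADS2 were higher at 5 to 4 too, and ACACA had the lowest ratio, 1.14 (1.07 to 1.21). ACAT2, the thiolase that joins acetyl-CoA units for the mevalonate chain, was 1.46-fold higher (1.33 to 1.60), while STARD4, a carrier of cholesterol between membranes, had a ratio of 0.958 (0.819 to 1.12). The control genes were not called: the ratio was 1.23 (1.10 to 1.37) for INSIG1, 1.22 (0.962 to 1.54) for SCAP, 1.12 (0.989 to 1.26) for SREBF2 and 1.05 for SREBF1, whose interval began at 0.877.

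Of 38 further genes of these pathways, 27 could be compared in cluster 2. TMEM97, a sterol-responsive membrane protein, was 1.64-fold higher (1.37 to 1.95), and NPC1, which releases cholesterol from lysosomes, 1.26-fold higher (1.10 to 1.45), of 5 storage and trafficking genes. Of 12 genes of fatty acid elongation, desaturation and activation, 3 were higher at 5 to 4: ACSS2, which makes acetyl-CoA from acetate, at 1.76-fold (1.51 to 2.04), FADS3 at 1.67-fold (1.45 to 1.91) and ELOVL1 at 1.33-fold (1.12 to 1.57). The 2 SREBP processing genes and the 5 isoprenoid side-branch genes held no call. Of 3 LXR and efflux genes 1 was called, ABCA1, the pump that exports cholesterol, which was lower.
ABCA1 stood at 45.3, 37.1, 73.7, 85.2, 101, 58.1 and 43.5 CPM in clusters 1 to 7 in turn. In cluster 2 it was 1.80-fold lower than in other cells (1.5 to 2.17), in clusters 4 and 5 it was 1.55-fold (1.33 to 1.79) and 1.77-fold (1.45 to 2.15) higher. The sterol sum was not lowest where ABCA1 was highest: it was 1629 CPM in cluster 5 and 1553 CPM in cluster 1.

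**Figure D3:**
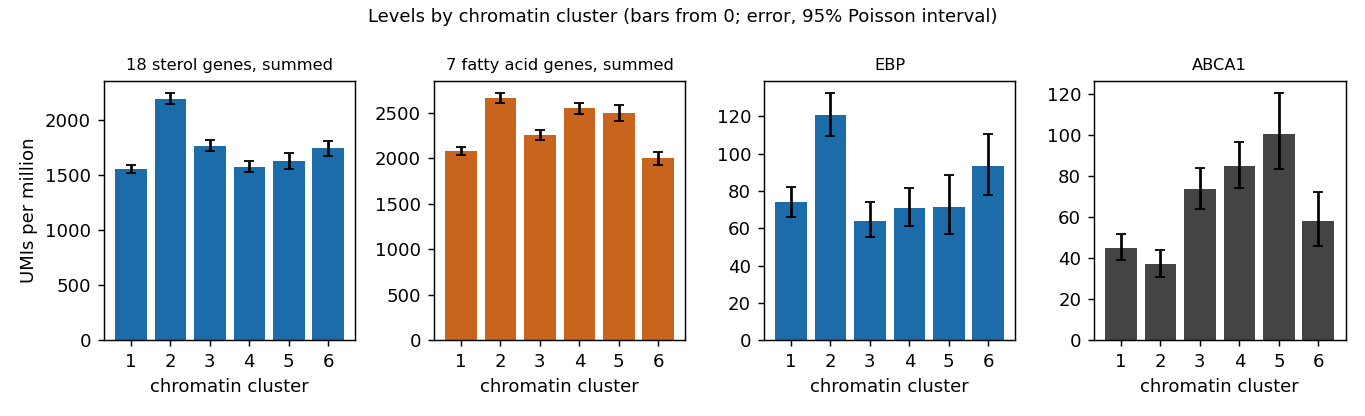
Bars are CPM in chromatin clusters 1 to 6 for the summed sterol enzymes, the summed fatty acid genes, EBP and ABCA1, each axis from 0, with 95% Poisson intervals. The bar of cluster 2 is the tallest for both sums and for EBP, and the shortest for ABCA1 at 37.1 CPM.

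These values rest on how the chromatin was weighted. With another weighting of the peaks, which split the cells of cluster 2 so that 50.5% fell in a cluster of 3368 cells, the sterol sums of its 5 clusters ran from 1637 to 1833 CPM, and the sterol median of the best-matched cluster was 0.057. When expression without the pathway genes drew the clusters instead, 1 cluster of 601 cells had a sterol sum of 2349 CPM, the others 1385 to 1807 CPM, and its sterol median was 0.46. It held 26.9% of the cells of cluster 2. More of them, 34.7%, fell in a cluster with a sterol sum of 1793 CPM, and 23.9% in one with 1790 CPM.

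In cluster 1 the genes leaned the other way. None of the 29 passed 1.5-fold, with 3.09% of all genes higher and 2.40% lower, and at 5 to 4, 1 was higher and 7 lower, against 12.9% and 7.23% of all genes. With the other weighting of the peaks the sterol median of the matched cluster was 0.029, and among cells with at most 10% mitochondrial UMIs it was -0.020. The median of the 29 was -0.20 and that of all genes 0.05. HMGCS1 stood at 244 CPM in cluster 1 and 341 CPM in other cells, 1.40-fold lower (1.31 to 1.5). TM7SF2, the sterol reductase, was 1.48-fold lower (1.19 to 1.84) and SREBF2 1.33-fold lower (1.17 to 1.51). NSDHL, a decarboxylase of the sterol ring, was the 1 gene higher, 1.34-fold (1.06 to 1.70). SCD had the lowest ratio of the fatty acid genes, 0.812 (0.785 to 0.839).

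Clusters 3 to 6 held few calls. At 1.5-fold 1 of the 29 genes was lower in cluster 3, where 2.51% of all genes were lower and 1.81% higher, and none was called in clusters 4, 5 and 6, where 2.00%, 3.06% and 4.16% of all genes were higher and 3.59%, 4.35% and 2.86% lower. The gene of cluster 3 was NSDHL, at 12.0 CPM against 21.4 CPM in other cells, 1.79-fold lower (1.26 to 2.62). At 5 to 4, where 8.81% of all genes were lower and 7.89% higher, EBP was the other gene lower and none was higher. It was 1.37-fold lower (1.17 to 1.61). Both genes lie on chromosome X, whose genes had a median log2 ratio of -0.19 in cluster 3. With that median taken off, the log2 ratio went from -0.84 to -0.65 for NSDHL and from -0.45 to -0.26 for EBP, which is then short of 5 to 4.

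The looser rule gave a few more calls. In cluster 4, 5 of the 29 genes were lower at 5 to 4, where 12.5% of all genes were, and none was higher, where 5.90% were. Among them were FDPS at 222 CPM against 310 CPM, 1.40-fold lower (1.28 to 1.52), and HSD17B7, 1.44-fold lower (1.07 to 1.97). SCD was at 1368 CPM there and 1131 CPM elsewhere, a ratio of 1.21 with an interval from 1.17, and its ratio in cluster 5 was 1.20 (1.14 to 1.26). In cluster 5, 1 gene was higher and 5 lower, where 6.73% and 9.03% of all genes were: LSS rose to 103 CPM from 79.3 CPM, 1.30-fold (1.07 to 1.57), and ACAT2 was 1.40-fold lower (1.16 to 1.71). In cluster 6, 1 was higher and 3 lower, where 10.1% and 6.66% of all genes were. STARD4 was the higher, 1.26-fold (1.02 to 1.55), and FADS2 was 1.40-fold lower (1.18 to 1.66). Cluster 7, with 121 cells, held no call of the 29 genes under either rule. There 1.94% and 1.5% of all genes were higher and lower at 1.5-fold, and 2.23% and 1.73% at 5 to 4.

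Whether sterol and fatty acid genes varied together from cell to cell was asked without reference to clusters. Each cell was thinned to 1000 UMIs and placed in a group by its UMIs of the 18 sterol enzymes. None was found in 1765 cells, 1 or 2 in 4845 cells and 3 or more in 2303 cells. The mean was 1.76 UMIs a cell and the variance 1.18 times the mean. Pairs of single genes gave low correlations at this depth. Over 435 pairs of 30 genes and 8913 cells the median Pearson correlation was 0.00515, and 286 pairs were above 0. The highest, of SCD with FADS1, was 0.0687. These values were not tested, and in counts this sparse no pair is read as a finding.

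Cells with 3 or more sterol UMIs had more fatty acid RNA than cells with none. All 7 fatty acid genes had a ratio above 1, with a median log2 ratio of 0.34 against -0.01 over all genes. At 5 to 4, 4 of the 7 were higher, against 3.08% of the 6813 genes compared, and at 1.5-fold 1 was, against 0.484%. None was lower, where 4.73% and 0.881% of all genes were. FASN stood at 83.3 CPM in cells with no sterol UMI, 109 CPM with 1 or 2 and 135 CPM with 3 or more, 1.61-fold between the ends (1.40 to 1.87). ELOVL6, which lengthens palmitate, was 1.32-fold higher (1.10 to 1.59), ACLY, which makes cytosolic acetyl-CoA from citrate, 1.29-fold (1.10 to 1.51), and FADS2 1.27-fold (1.12 to 1.43). SCD went from 1079 to 1130 and 1317 CPM over the 3 groups, a ratio of 1.22 (1.17 to 1.27), while ACACA was at 318, 315 and 336 CPM, a ratio of 1.06 (0.974 to 1.14).

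The control and transport genes divided. INSIG1 stood at 90.3, 97.3 and 118 CPM over the same groups, 1.31-fold higher at the top (1.14 to 1.52), and ACAT2 was 1.28-fold higher (1.13 to 1.45). STARD4 had a ratio of 1.20 (0.994 to 1.45), SREBF2 1.07 with an interval from 0.919, SREBF1 0.931 (0.751 to 1.15) and SCAP 0.889 (0.655 to 1.21), none of them called. Of 28 further pathway genes compared, TMEM97 was 1.57-fold (1.23 to 2.01), ACSS2 1.32-fold (1.07 to 1.62) and TECR 1.31-fold (1.08 to 1.59) higher, and ABCA1 was 1.36-fold lower (1.13 to 1.65). Outside the lists the highest ratios were those of SPATC1L at 1.94, CDH6 at 1.85, ST6GAL2 at 1.85, KRT5 at 1.83 and POP5 at 1.80, each under 39 CPM in the cells with 3 or more.

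**Figure D4:**
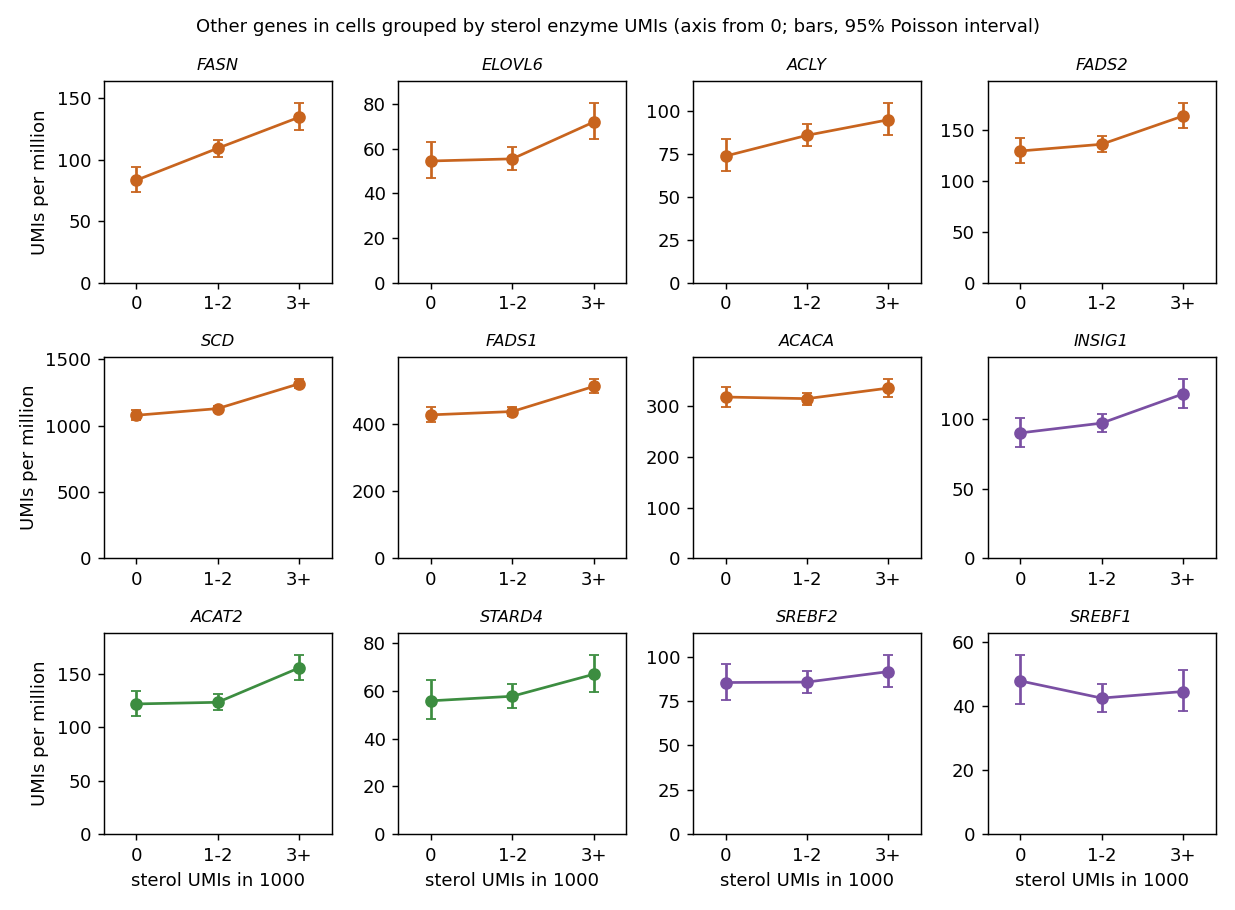
Each panel is 1 gene; the horizontal axis is the group of cells by sterol UMIs among 1000 (0, 1 to 2, 3 or more), the vertical axis CPM from 0, with 95% Poisson intervals. FASN goes from 83.3 to 135 CPM, INSIG1 from 90.3 to 118 CPM, and SREBF1 stays between 42.5 and 47.9 CPM.

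The groups were alike in depth, with medians of 1543, 1493 and 1565 UMIs a cell, and in mitochondrial share, with medians of 14.0%, 13.8% and 13.9%. They were not alike in make-up. Cluster 2 gave 28.4% of the cells with 3 or more sterol UMIs, though it held 20.6% of all cells. Mesothelial markers went from 8884 CPM in cells with none to 10512 CPM. Cell cycle genes of the G2/M phase went from 1739 to 1953 CPM and those of S phase from 589 to 638 CPM. The part of these differences in the result was not tested. Within clusters 1 to 6 in turn, 7, 7, 5, 6, 3 and 3 of the 7 fatty acid genes could be compared. Their median log2 ratios were 0.11, 0.44, 0.24, 0.17, 0.13 and 0.24. Of the genes compared 6, 7, 5, 5, 2 and 3 were above 0. No median or share over all genes was taken within clusters, so these values have no background beside them. FASN was higher within clusters 1 to 4, at 1.48 (1.12 to 1.97), 1.46 (1.09 to 2.01), 1.85 (up to 2.80) and 1.53 (1.04 to 2.26).

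The reverse grouping, by UMIs of the 7 fatty acid genes, set 3540 cells with 3 or more against 1112 with none. Of the 15 sterol enzymes compared 13 had a ratio above 1, with a median log2 ratio of 0.30 against -0.02 over all genes. At 5 to 4, 5 of the 15 were higher, where 2.36% of all genes were, and at 1.5-fold 1 was, where 0.483% were. None was lower, where 3.59% and 0.629% of all genes were. The gene past 1.5-fold was TM7SF2, at 35.2 CPM against 23.1 CPM, 1.52-fold (1.11 to 2.12), and HMGCS1 was 1.29-fold higher (1.17 to 1.41). IDI1 had the lowest ratio of the 15, 0.974 (0.797 to 1.20). PMVK, GGPS1 and NSDHL were below the floor and not compared. PMVK went from 14.9 CPM in cells with none to 7.65 CPM in those with 3 or more, on 31 and 50 UMIs. GGPS1 went from 11.1 to 12.4 CPM and NSDHL from 19.3 to 19.7 CPM. SREBF1 and SREBF2 were at 1.07 (0.842 to 1.38) and 1.08 (0.905 to 1.28). The middle group, with 1 or 2 fatty acid UMIs, had a sterol median of 0.11. These groups differed in make-up too: cluster 2 gave 16.5% of the cells with none and 23.9% of those with 3 or more. Mesothelial markers stood at 9087, 9464 and 10184 CPM over the 3 groups. G2/M phase genes stood at 1940, 1860 and 1817 CPM and S phase genes at 610, 635 and 606 CPM. The part of these differences in the result was not tested. Within clusters 1 to 6 in turn, 11, 11, 9, 9, 4 and 3 of the 18 sterol enzymes could be compared. Their median log2 ratios were 0.18, 0.48, 0.22, 0.24, -0.0014 and 0.35. Of the enzymes compared 7, 10, 7, 7, 2 and 3 were above 0. Here too no median or share over all genes was taken within clusters.

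Between cells grouped by cell cycle UMIs, calls among the genes were near or below the share of all genes. Cells with more S phase than G2/M UMIs, 1288 in number, were set against 1766 cells with UMIs of neither list. Of the 29 genes 1 was higher at 1.5-fold and none lower, where 2.72% and 1.15% of all genes were. At 5 to 4, 1 was higher and 1 lower, where 6.45% and 4.04% of all genes were, and the median was 0.07. The higher gene was NSDHL, at 23.1 CPM against 14.9 CPM, 1.56-fold higher (1.05 to 2.32). SCAP was the gene lower at 5 to 4, 1.49-fold (1.04 to 2.17). In the 4958 cells with more G2/M than S phase UMIs none passed 1.5-fold, where 3.40% of all genes were higher and 0.703% lower, and the median was 0.09. NSDHL and ELOVL6 were higher at 5 to 4 and none was lower, where 8.41% and 4.60% of all genes were. SCD had ratios of 0.841 (0.802 to 0.882) and 0.856 (0.826 to 0.886) in the S and G2/M groups, the lowest of the fatty acid genes in both. Among cells with at most 10% mitochondrial UMIs the medians were -0.069 and -0.22. The groups were not alike in depth, with medians of 1736.5 UMIs a cell with neither list, 1556 in the S group and 1477 in the G2/M group. Median mitochondrial shares were 14.9%, 14.1% and 13.6%. The part of these differences in the ratios was not tested.

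Peaks at the genes were called higher in cluster 2 at a share near that of all peaks. Peak counts were summed in the same way, 2 counts standing for 1 event, and scaled to 1000000 events (EPM), for 53 peaks near the genes with at least 100 events. In cluster 2, 3 of the 53 were higher at 1.5-fold, where 5.14% of the 60112 peaks compared were, and none was lower, where 3.33% were. The strongest peak near each gene had a median log2 ratio of -0.03 in cluster 2 over 30 genes, with 12 of 30 above 0, and none of the 30 was called. FADS1 and FADS2 share their strongest peak, which is counted for each. At EBP the peak chrX:48521360-48522256, which covers the stretch printed above, had 17.1 EPM in cluster 2 and 13.0 in other cells, a ratio of 1.31 (1.01 to 1.68). At FASN the ratio was 0.946 (0.839 to 1.06) and at HMGCS1 0.976 (0.857 to 1.11), with the RNA of both higher. HSD17B7 had 88 events over all cells at its start peak and was not compared.

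**Figure D5:**
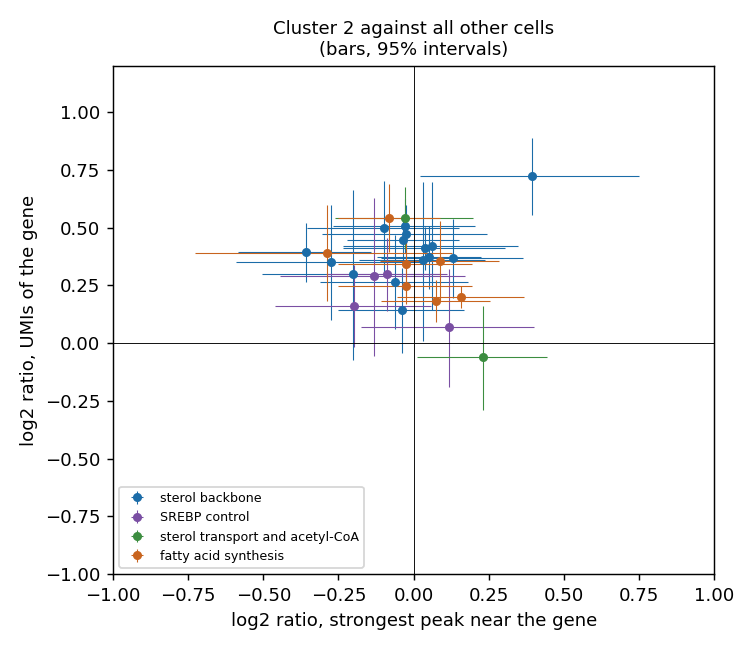
Each point is 1 of 28 genes in cluster 2 against all other cells; the horizontal axis is the log2 ratio of the strongest peak near the gene, the vertical axis the log2 ratio of its UMIs, with 95% intervals and colours by role. In 27 of the 28 genes the point lies above 0 on the vertical axis, while 11 of the 28 lie right of 0 on the horizontal one. EBP is at the upper right and STARD4 is the point below the line. FADS1 and FADS2 share 1 peak.

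The 3 peaks higher in cluster 2, a number near the share of all peaks, lay away from the strongest peak of their gene. The peak chr6:159760317-159761106 near ACAT2 had 14.3 EPM in cluster 2 and 7.67 elsewhere, 1.87-fold (1.39 to 2.49). The other two lay inside the interval of ACACA, at chr17:37391784-37392707, 1.76-fold (1.37 to 2.27), and at chr17:37361362-37362210, 1.55-fold (1.06 to 2.23). The second of these had 1.95 EPM in cluster 1 against 7.75 elsewhere, 3.96-fold lower (2.22 to 7.74), and was 2.13-fold higher in cluster 4 (1.46 to 3.05). The first was 1.93-fold lower in cluster 4 (1.29 to 2.99). The RNA of ACACA in clusters 1 to 7 ran from 298 to 354 CPM.

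In clusters 1, 3, 4, 5 and 6, peaks higher at 1.5-fold numbered 0, 0, 5, 1 and 2 of the 53, where 7.16%, 4.67%, 4.16%, 3.82% and 4.79% of all peaks were. Peaks lower numbered 3, 2, 3, 0 and 1, where 7.81%, 9.09%, 6.37%, 5.09% and 4.05% of all peaks were. Calls at gene starts were few among them. In cluster 6 the start peak of SREBF2, over the stretch with the sterol element, was 1.57-fold higher (1.27 to 1.94), beside a median log2 ratio of 0.51 for the RNA of all genes on chromosome 22 there, and that of FDPS was 1.57-fold lower (1.13 to 2.25). SREBF2 RNA had a ratio of 1.16 (0.965 to 1.38) in cluster 6. In cluster 7 the start peaks of MVK, EBP, STARD4 and SCD were lower, on 1 to 11 events each, where 2.99% of all peaks were lower and 0.893% higher. Peaks leaned lower there in general, with a median log2 ratio of -0.29 over all peaks. Over the strongest peaks near the genes it was -0.38, with 3 of 30 above 0. Between cells with 3 or more and no sterol UMIs none of 44 peaks was called, where 0.980% of all peaks were higher and 0.676% lower, and the median log2 ratio over the strongest peaks was 0.01.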

How the data were processed

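The authors deposited 1 matrix of raw counts, per the file headers made with Cell Ranger ARC 2.0.0, that holds UMIs for 36601 genes and counts for 215590 peaks in 651860 barcodes. The submitters' processing notes also name Cell Ranger 2.0.0, ArchR 1.0.3, MACS2 and the build GRCh38.p10, with no step given for each. Hashtags were not used here, so all cells formed 1 pooled sample and no test was made. Nothing says that the cultures were replicated.

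A barcode was kept as a cell if its UMIs and its peak counts both reached 1000 and mitochondrial genes took no more than 20% of the UMIs. Of 11130 barcodes past both minimums, 2217 were over the mitochondrial limit, which left 8913. Scrublet marked 0 doublets and is taken not to have worked, so no cell was removed. Peaks outside 2 kb of the genes were weighted by the log of 1 plus a scaled tf times idf and reduced to 30 components. Those correlated over 0.75 with depth were dropped, cells were scaled to length 1, and 15 neighbours fed Leiden at a resolution of 0.5 (scanpy 1.11.5, leidenalg 0.10.2, scikit-learn 1.9.0, Python 3.11.15). This weighting was chosen after the cluster sizes of several weightings had been seen.

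Summed UMIs were compared as CPM ratios with exact conditional binomial 95% intervals (scipy 1.17.1), levels carry exact Poisson intervals, and the code was tested on simulated data. For peaks 2 counts were taken as 1 event, with a floor of 100 events. Free RNA was read from barcodes with 1 to 100 UMIs, widened from 10 to 100 after the counts had been seen. Genes are named by role, in full where past 1.5-fold or at the end of their role, with the 5 highest outside the lists for the sterol groups. The members and lists were chosen with earlier results of these data known. Alternatives changed the scaling, the gene floor, the cell filter, the doublet score, the clustering, the thinning and the peak limits.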

Additional observations from a re-analysis of the deposited data

How the results depend on the processing

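The sterol median of cluster 2, a log2 ratio of 0.40, lay between 0.38 and 0.46 under 10 of 12 alternatives. Those on scaling and the gene floor kept the same cells and clusters. The 0.46 came from an expression cluster that held 26.9% of the cells of cluster 2. The sterol median was 0.50 in deeper cells, those past 2000 UMIs and as many peak counts. It was 0.057 when the peaks were weighted as tf times log idf, an alternative chosen after seeing the data. The cause was not tested. That of cluster 1, -0.20, was -0.35 in the deeper cells, -0.020 in cells with at most 10% mitochondrial UMIs and 0.029 with the other weighting. Cluster 3 went from -0.05 to 0.14 at a Leiden resolution of 1.0, cluster 7 from 0.03 to 0.32 in cells with at most 10% mitochondrial UMIs, and cluster 5 from -0.11 to -0.059 when the median of the same chromosome was taken off, which was added after seeing the data.

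The fatty acid median between cells with 3 or more and no sterol UMIs, 0.34, was 0.47 in the deeper cells, 0.23 at the 10% mitochondrial limit, 0.40 with the top 8% by Scrublet score left out, 0.21 for 2 or more against 0, and 0.11 within cluster 1. The sterol median of the reverse grouping, 0.30, was 0.36 with TMM scaling, 0.37, 0.38 and 0.34 under the first 3 of those settings, 0.23 for 2 or more against 0, and 0.18 within cluster 1. Both stayed above 0 under these and the other settings, 10 for each median, while within cluster 5, a value added after seeing the data, the second was -0.0014. The setting by Scrublet score cannot speak to doublets, since Scrublet is taken not to have worked. At the 10% mitochondrial limit the member medians of the S and G2/M groups went from 0.07 and 0.09 to -0.069 and -0.22. Of the member peaks, 24 calls in all became 42 at a ratio of 5 to 4, 33 with a floor of 20 events and 18 for peaks that overlap the gene interval.

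Alternatives on cells kept the clusters already drawn. Clusters 4, 5 and 6 under the other weighting, and 5, 6 and 7 when expression drew the clusters, overlapped no new cluster by a Jaccard index of 0.2 and are not given. Keeping the drawn clusters and this limit on overlap were chosen after cluster sizes had been seen. No paired analysis was possible because there was 1 pooled sample, which also left no replicate to leave out. At this depth PMVK and GGPS1 fell below the floor, and cluster 7 rests on 121 cells.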
